A study of Mus musculus with 6 samples.

Results

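Imprinted genes are transcribed mainly from a single parental allele. Of 40 listed mouse imprinted genes, 36 could be followed in the hippocampus of mice that lack the aryl hydrocarbon receptor (Ahr-KO) and of wild-type mice. The list was drawn up from what is known of imprinting in the mouse, and a gene counted as measured where the array's annotation pairs a probe set with its symbol alone. These 36 genes stand among 22180 genes measured in all. Of them 19 are paternally expressed, 11 are maternally expressed, and for 6 (Grb10, Ddc, Gnas, Igf2r, Ppp1r9a and Inpp5f) the active allele depends on the tissue or transcript. Rtl1, Mirg, Snrpn and Nespas were not measured, because the rows that name them name other genes as well.

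The marks that set the active allele are laid down in the germ line as DNA methylation of imprinting control regions, which then govern whole clusters of genes. Many imprinted genes are strongly transcribed in the brain, some use a single allele only in neurons, and several pairs of neighbours are expressed from opposite alleles. The aryl hydrocarbon receptor is a ligand-activated transcription factor that binds DNA together with ARNT.

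The data are 6 whole-transcript Affymetrix arrays, 3 from Ahr-KO and 3 from wild-type mice, with a different mouse named for each array. Total RNA came from hippocampi dissected out of hemibrains. The labels used here give no age, sex, strain or details of the null allele. The values are RMA signals on the log2 scale, 1 per probe set, and the array medians lay between 6.39 and 6.41. In bulk tissue, fewer cells of a type and less RNA per cell cannot be told apart, and because a signal depends on its probes, levels of different genes are not ranked here.

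Ahr itself read 6.62, 6.91 and 6.74 in Ahr-KO and 7.68, 7.499 and 7.44 in wild type, without overlap. The difference of -0.78 ± 0.10 (SE) missed the threshold (limma, adjusted p = 0.320). Whether its probe set lies in the deleted part is not given in the sources used here. Markers of hippocampal neurons were well represented in both genotypes, with a mean over 17 genes of 9.34 to 9.46 in Ahr-KO and 9.24 to 9.41 in wild type. The mean of 14 hypothalamic genes lay between 5.52 and 5.61 on every array. Choroid plexus genes stood apart on Ahr-KO array 1 and wild-type array 2, where 18 of them averaged 7.23 and 6.70 against 5.70 to 5.79 on the other 4 arrays.

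No imprinted gene differed between the genotypes past the threshold. With limma, 0 of 36 had an adjusted p under 0.05, and the lowest adjusted p was 0.806. Over all 22180 genes the share called was 0.0%, with 1371 genes at an unadjusted p under 0.05, and an intensity trend in the variance model called 2 genes, neither of them among the 36. At an unadjusted p under 0.05, 2 imprinted genes were higher in Ahr-KO, the paternally expressed Dlk1 and the maternally expressed Asb4, where 3.53% of all genes were. None was lower, where 2.65% of all genes were. Leaving out Ahr-KO array 1 or wild-type array 3 took the count of higher genes to 0, leaving out Ahr-KO array 3 or wild-type array 1 took it to 1, and leaving out wild-type array 2 took it to 3 (Dlk1, Dio3 and Nnat). Without Ahr-KO array 2 the count stayed at 2, but the genes were then Plagl1 and Nnat in place of Dlk1 and Asb4. Without Ahr-KO array 1 there were 2 lower genes, Ube3a at -0.26 and Cdkn1c at -0.26, and without wild-type array 2 there was 1, Nap1l5 at -0.21.

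The differences between genotypes, in log2 units and positive where Ahr-KO was higher, scattered around 0 in each allele class. The median difference was 0.0055 over the 19 paternally expressed genes, of which 10 had a higher and 9 a lower mean in Ahr-KO. It was -0.0066 over the 11 maternally expressed genes, with 5 higher and 6 lower. The 6 genes of variable allele use had a median of -0.0085 and divided into 3 and 3. Over all genes the median was 0.0019. For 31 of the 36 genes (86.1%) the 95% interval of the difference lay within 0.5 log2 on either side of 0, against 91.5% of all genes. The intervals that reached beyond 0.5 log2 belonged to Dlk1, Asb4, Plagl1, Nnat and Dio3. That of Cdkn1c, -0.46 to 0.39, was also wide but stayed within it. These intervals are for single genes and take no account of the number of genes tested.

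**Figure D1:**
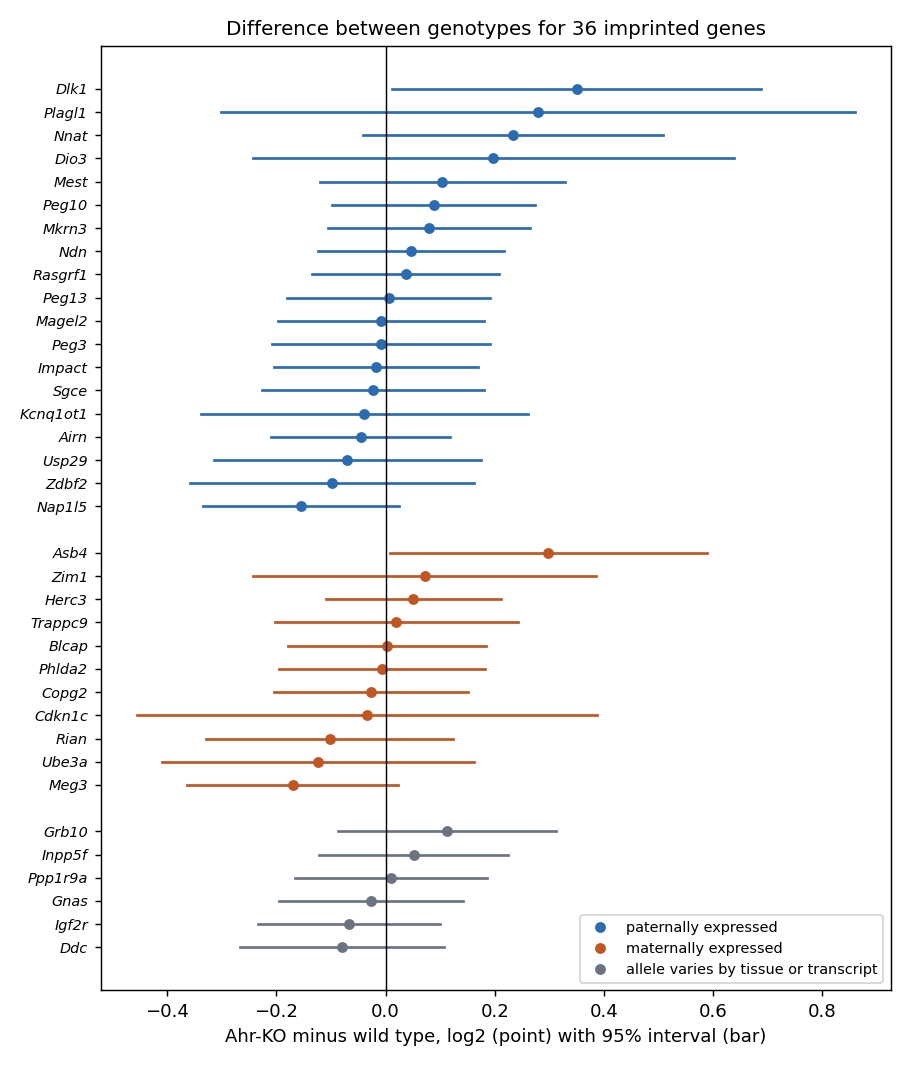
Difference between genotypes for each measured imprinted gene. The horizontal axis is the log2 difference (point), positive where Ahr-KO was higher, with limma's 95% interval (bar), from 3 arrays per genotype, and genes are sorted within allele classes. Only the intervals of Dlk1 and Asb4 lie wholly on one side of 0, before any adjustment for the number of genes.

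The Dlk1-Dio3 cluster on mouse chromosome 12 carries paternally expressed protein genes and maternally expressed long RNAs. Dlk1, a transmembrane relative of the Notch ligands that restrains differentiation, read 6.66, 6.57 and 6.74 on the Ahr-KO arrays and 6.12, 6.67 and 6.12 on the wild-type arrays. All 3 Ahr-KO arrays and wild-type array 2 were high, so the genotypes overlapped. The means were 6.66 ± 0.09 and 6.31 ± 0.32 (SD, 3 arrays per genotype), a 1.27-fold difference (0.35 ± 0.15, SE; limma, unadjusted p = 0.0443, adjusted p = 0.806). The difference was 0.53 without wild-type array 2, and 0.26 both without wild-type array 1 and without wild-type array 3. With any array other than wild-type array 2 left out, the unadjusted p was between 0.0528 and 0.153.

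Meg3, a maternally expressed long RNA of the same cluster, went the other way. Its single probe set with 1 symbol read 6.50, 6.31 and 6.44 in Ahr-KO and 6.51, 6.57 and 6.68 in wild type. Every Ahr-KO value lay below every wild-type value, though Ahr-KO array 1 and wild-type array 1 nearly touched, and the difference was -0.17 ± 0.08 (SE; limma, adjusted p = 0.817). Which strand and exons this probe set reads is not given in the sources used here, so its signal may not be that of Meg3 RNA. Other rows that name Meg3 together with microRNA genes were not used. Rian, a long RNA that hosts small nucleolar RNAs, read 11.02, 10.68 and 10.90 in Ahr-KO against 10.96, 10.91 and 11.03 in wild type. Its values overlapped, with Ahr-KO array 2 the lowest, and differed by -0.10 ± 0.10 (SE). This was -0.01 with Ahr-KO array 2 left out and -0.18 with Ahr-KO array 1 left out. Dio3, the deiodinase that inactivates thyroid hormone, read 4.97, 4.74 and 5.32 against 4.63, 5.21 and 4.604. Ahr-KO array 3 and wild-type array 2 were the highest, and the difference was 0.20 ± 0.19 (SE), with a signal below the array medians in both genotypes. It was 0.40 without wild-type array 2, 0.33 without Ahr-KO array 2, and 0.04, 0.10 and 0.09 without Ahr-KO array 3, wild-type array 1 and wild-type array 3.

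Asb4 lies near Peg10 on chromosome 6 and encodes an ankyrin-repeat substrate receptor of a ubiquitin ligase. It read 4.49, 4.73 and 4.27 in Ahr-KO and 4.34, 4.05 and 4.19 in wild type, with Ahr-KO array 2 the highest and overlap between the genotypes. The difference was 0.30 ± 0.13 (SE), 1.23-fold (limma, unadjusted p = 0.0457, adjusted p = 0.806), and 0.18 without Ahr-KO array 2. Asb4 was below the array medians in both genotypes. None of its neighbours passed: Peg10, derived from a retrotransposon, differed by 0.09 (95% interval -0.10 to 0.27), Sgce, epsilon-sarcoglycan, by -0.02 (-0.23 to 0.18), and Ppp1r9a, the actin-binding neurabin, by 0.01 (-0.17 to 0.19).

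Nap1l5 is an intronless paternally expressed gene inside Herc3, and Herc3, a ubiquitin ligase, is expressed more from the maternal allele in brain. Nap1l5 read 10.25, 10.21 and 10.17 in Ahr-KO and 10.38, 10.26 and 10.45 in wild type. The genotypes did not overlap, by a narrow margin between Ahr-KO array 1 and wild-type array 2, and the difference was -0.15 ± 0.08 (SE; limma, adjusted p = 0.817). Herc3 differed by 0.05 (-0.11 to 0.21). Nap1l5 and Meg3 were the 2 imprinted genes that were lower without overlap, where 5.75% of all genes were, and 0 were higher without overlap, where 6.18% of all genes were.

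Nnat, neuronatin, a small membrane protein of developing neurons, sits inside an intron of Blcap. It read 10.25, 9.90 and 10.10 in Ahr-KO and 9.83, 10.04 and 9.68 in wild type. Ahr-KO array 1 was the highest and wild-type array 3 the lowest, and wild-type array 2 lay among the Ahr-KO values. The difference of 0.23 ± 0.12 (SE) did not pass (limma, adjusted p = 0.817), and it was 0.15 without Ahr-KO array 1 and likewise 0.15 without wild-type array 3. The second Nnat probe set differed by 0.24, and Blcap, its maternally expressed host, by 0.00 (-0.18 to 0.18).

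**Figure D2:**
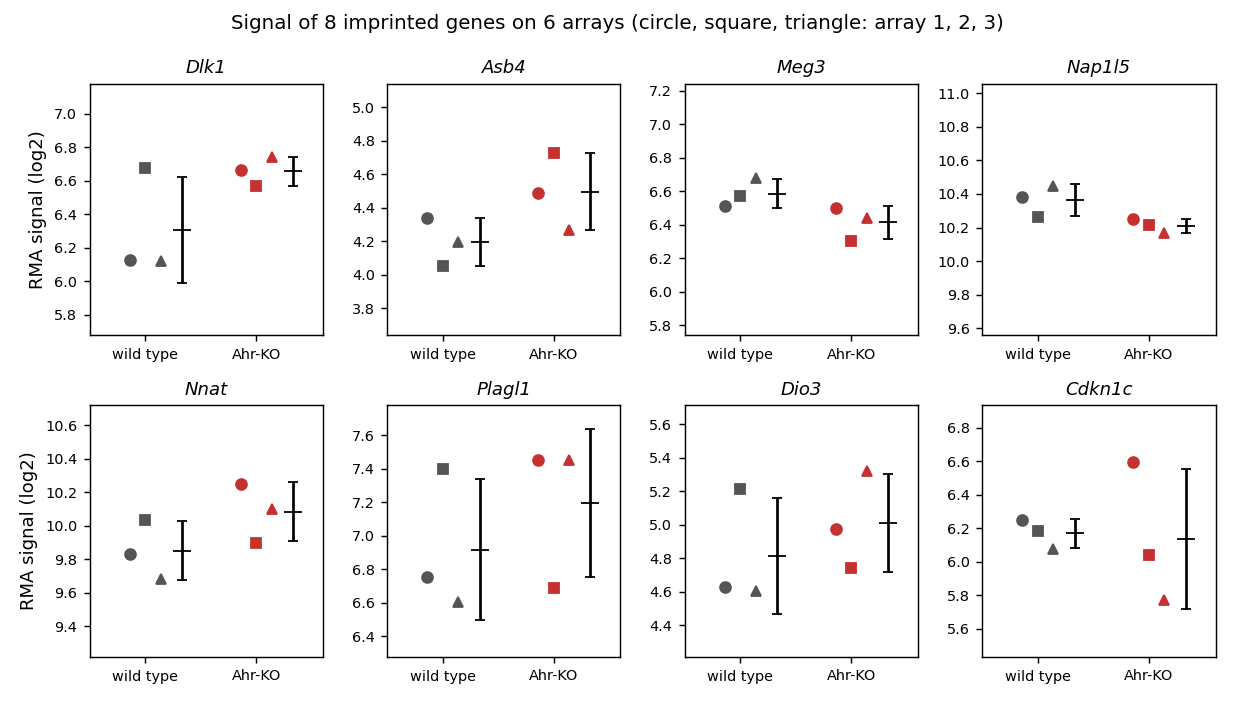
RMA signal (log2, vertical axes with the same span in each panel) of 8 imprinted genes on each of the 6 arrays, with the mean and SD of each genotype as black bars. Dlk1, Plagl1 and Dio3 were high on wild-type array 2 (grey square), where they lay with Ahr-KO arrays 1 and 3 (red circle and triangle), and Meg3 and Nap1l5 show the 2 cases without overlap.

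In the cluster affected in Prader-Willi and Angelman syndromes, none of the measured genes passed. Ndn, necdin, a MAGE-family protein of postmitotic neurons, differed by 0.05 (95% interval -0.12 to 0.22), its relative Magel2 by -0.01 (-0.20 to 0.18), and Mkrn3, a ubiquitin ligase that restrains puberty, by 0.08 (-0.11 to 0.27). The signals of Magel2 and Mkrn3 lay below the array medians in both genotypes. Ube3a, the ubiquitin ligase that neurons express from the maternal allele, read 11.11, 10.61 and 10.78 in Ahr-KO and 11.03, 10.95 and 10.90 in wild type. Ahr-KO arrays 1 and 2 were its highest and lowest values, and the difference was -0.12 ± 0.12 (SE), -0.26 without Ahr-KO array 1 and -0.01 without Ahr-KO array 2. The second Ube3a probe set differed by 0.04.

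The zinc-finger gene Peg3 and the deubiquitinase gene Usp29 share a promoter region and paternal expression. Peg3 read 11.24, 10.99 and 11.10 in Ahr-KO and 11.08, 11.20 and 11.08 in wild type, a difference of -0.01 (-0.21 to 0.19). Usp29 read 9.08, 8.75 and 8.87 against 8.83, 9.07 and 9.003, and differed by -0.07 (-0.31 to 0.17). Both overlapped between the genotypes. Their maternally expressed neighbour Zim1 differed by 0.07 (-0.24 to 0.39).

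Rasgrf1, a calcium-responsive exchange factor for Ras that is needed for memory in mice, read 11.69, 11.60 and 11.73 in Ahr-KO and 11.62, 11.70 and 11.59 in wild type. The difference was 0.04 (-0.14 to 0.21). Impact, an inhibitor of the stress kinase GCN2, read 11.02, 11.04 and 11.08 against 10.96, 11.04 and 11.19, and differed by -0.02 (-0.20 to 0.17). Both genes overlapped between the genotypes.

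None of the growth and signalling genes of other loci passed. Grb10, an adaptor that dampens insulin signalling and is paternally expressed in neurons, read 7.86, 7.93 and 7.96 in Ahr-KO and 7.95, 7.76 and 7.71 in wild type, a difference of 0.11 (-0.09 to 0.31) that was 0.19 without wild-type array 1 and 0.06 without wild-type array 3. Its neighbour Ddc, which makes dopamine and serotonin from their precursors, differed by -0.08 (-0.27 to 0.11). Mest, a hydrolase-like protein of mesoderm and neurons, read 9.46, 9.14 and 9.27 against 9.11, 9.26 and 9.18, a difference of 0.10 (-0.12 to 0.33) that was 0.02 without Ahr-KO array 1, 0.18 without Ahr-KO array 2 and 0.07 without wild-type array 1. Copg2, a coat protein of Golgi vesicles, differed by -0.03 (-0.21 to 0.15). Igf2r, which clears IGF2 from the cell surface, read 7.89, 7.89 and 7.84 against 7.96, 7.995 and 7.86, and differed by -0.07 (-0.23 to 0.10), while Airn, the antisense RNA that silences it, differed by -0.05 (-0.21 to 0.12). All of these overlapped between the genotypes.

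Kcnq1ot1, the long RNA that silences its cluster on the paternal chromosome, read 8.08, 7.79 and 7.85 in Ahr-KO and 8.06, 8.10 and 7.67 in wild type, a difference of -0.04 (-0.34 to 0.26). Cdkn1c, a cyclin-dependent kinase inhibitor of the same cluster, read 6.59, 6.04 and 5.77 in Ahr-KO and 6.25, 6.18 and 6.08 in wild type. Ahr-KO array 1, where choroid plexus genes were also highest, gave its top value and Ahr-KO array 3 its lowest. On wild-type array 2, where choroid plexus genes were also high, it read 6.18, below wild-type array 1. The difference was -0.03 (-0.46 to 0.39), -0.26 without Ahr-KO array 1 and 0.15 without Ahr-KO array 3. With the choroid plexus mean as covariate the Cdkn1c difference was -0.09, and without both arrays high in choroid plexus genes it was -0.26. Whether choroid plexus tissue underlies its spread was not tested. Phlda2, a growth-restraining gene best known from placenta, differed by -0.01 (-0.20 to 0.18).

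Trappc9, a subunit of a vesicle-tethering complex, read 8.25, 8.58 and 8.37 in Ahr-KO and 8.43, 8.40 and 8.32 in wild type, a difference of 0.02 (-0.20 to 0.24). Peg13, a paternally expressed long RNA from within Trappc9, differed by 0.01 (-0.18 to 0.19). Gnas, which encodes the stimulatory G protein alpha subunit and further imprinted transcripts, read 6.35, 6.25 and 6.29 against 6.27, 6.39 and 6.32, and differed by -0.03 (-0.20 to 0.14), although which of its transcripts the probe set reads is not given in the sources used here. Inpp5f, a phosphoinositide phosphatase, differed by 0.05 (-0.12 to 0.22), and Zdbf2, a zinc-finger gene, by -0.10 (-0.36 to 0.16). For 9 of the 36 genes both genotype means lay under the array medians, so their signals may lie near background, for which no calls were used here. These were Dio3, Asb4, Ddc, Gnas, Magel2, Mkrn3, Cdkn1c, Phlda2 and Airn.

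Neighbours expressed from opposite alleles were set against each other on each array, as the log2 signal of the paternally expressed gene minus that of the maternally expressed gene. The size of such a ratio depends on the probes, so only its difference between genotypes is read. Over 17 such pairs from 9 loci, 9 ratios had a higher mean in Ahr-KO. Without overlap, 2 ratios were higher and 1 lower in Ahr-KO; of single genes, 6.18% were higher and 5.75% lower without overlap. Dlk1 minus Meg3 was 0.16, 0.26 and 0.30 in Ahr-KO and -0.39, 0.10 and -0.56 in wild type, so all 3 Ahr-KO values lay above all 3 wild-type values. The genotype means differed by 0.52, with SDs of 0.07 in Ahr-KO and 0.34 in wild type. As the strand read by the Meg3 probe set is not known, this may not be a ratio of paternal to maternal transcripts. The other 3 pairs of this cluster overlapped and differed by 0.30 to 0.45. Nnat minus Blcap was 2.99, 2.66 and 2.80 in Ahr-KO and 2.64, 2.65 and 2.46 in wild type, higher in Ahr-KO by 0.23 with values that nearly touched. Nap1l5 minus Herc3 was 0.11, 0.05 and 0.05 in Ahr-KO and 0.24, 0.21 and 0.38 in wild type, where the genotypes did not overlap and differed by -0.21. The remaining pairs overlapped, with differences from -0.32 for Sgce minus Asb4 to 0.20 for Mkrn3 minus Ube3a. No p is given for these ratios: an exact permutation test of 3 against 3 arrays cannot go below 0.1, and pairs that share a gene are not independent.

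**Figure D3:**
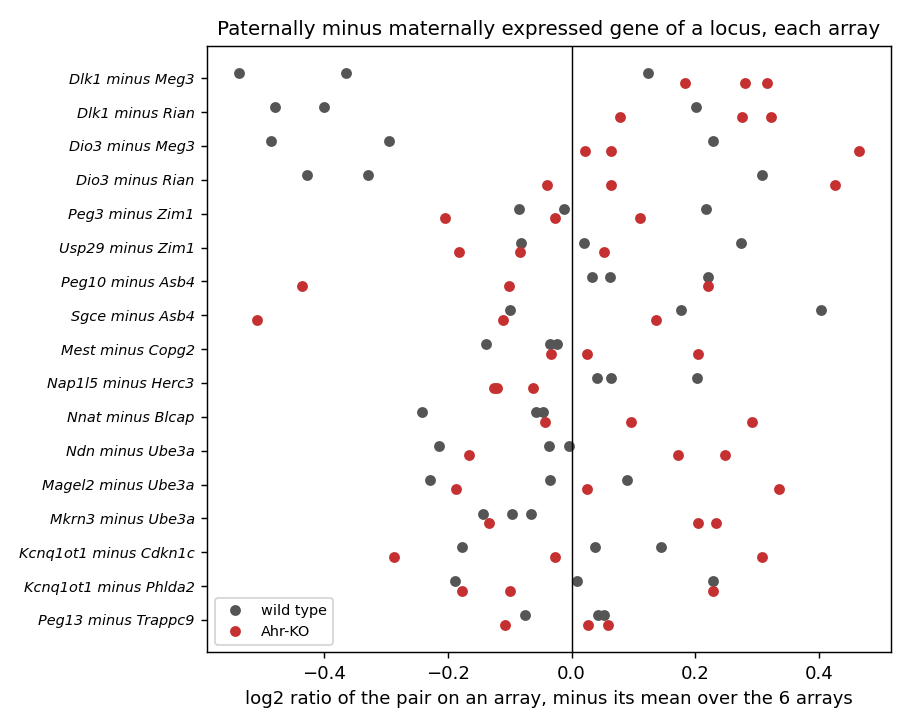
Log2 ratio of the paternally to the maternally expressed gene of a locus on each array, minus the mean of that pair over the 6 arrays (horizontal axis), for 17 pairs. Red points are Ahr-KO and grey points wild-type arrays. The genotypes are separate for Dlk1 minus Meg3, Nap1l5 minus Herc3 and, narrowly, Nnat minus Blcap, and they overlap for the other pairs.

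Several paternally expressed genes had a spread over the arrays that did not follow genotype alone. Plagl1, a zinc-finger regulator of other imprinted genes, read 7.45, 6.69 and 7.45 in Ahr-KO and 6.76, 7.40 and 6.60 in wild type. Its values fell into 3 high arrays, Ahr-KO arrays 1 and 3 and wild-type array 2, and 3 low ones, and the genotypes differed by 0.28 ± 0.25 (SE; limma, adjusted p = 0.885). This difference was 0.53 without Ahr-KO array 2, 0.52 without wild-type array 2, 0.15 without Ahr-KO array 1, also 0.15 without Ahr-KO array 3, and 0.12 without wild-type array 3. The same 3 arrays held the 3 highest values of 12 of the 36 imprinted genes, from 10 loci, against 6.43% of all genes. Of these 12 genes 10 were paternally expressed (Plagl1, Dio3, Dlk1, Nnat, Zdbf2, Mest, Peg3, Sgce, Ndn and Rasgrf1), 1 was maternally expressed (Blcap) and 1 of variable allele use (Inpp5f). This set of arrays was the most frequent among the imprinted genes and was singled out after their values were seen, so the count is a description with no test. Plagl1, Dio3, Dlk1 and Nnat ranged most widely among the paternally expressed genes, while Ndn and Rasgrf1 varied little. The second Plagl1 probe set did not show the split of the first. It was far below the array medians, at 3.21, 3.08 and 3.13 in Ahr-KO and 2.75, 3.06 and 2.89 in wild type. There the genotypes did not overlap, by a narrow margin, and differed by 0.24.

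Genes of ependymal cells, the ciliated lining of the ventricles, were high on Ahr-KO array 1 and wild-type array 2. They were raised much less on Ahr-KO array 3, with mean deviations of 0.22, 0.19 and 0.06 on these arrays. A list of 23 measured motile cilia genes, chosen after the imprinted genes' values had been seen, averaged 6.05, 5.62 and 5.88 in Ahr-KO and 5.69, 6.02 and 5.70 in wild type. For 15 of these 23 genes Ahr-KO arrays 1 and 3 and wild-type array 2 were the 3 highest. For choroid plexus genes this held for 6 of 18, with Ahr-KO array 3 far below the other pair, and for markers of hippocampal neurons for 4 of 17. Pan-neuronal genes varied little, between 11.08 and 11.14, and 1 of 12 had this order. The part of the tissue dissected in the imprinted genes' spread was not tested. With the mean of the cilia genes as a covariate, an alternative added after the data had been seen, the genotypes differed by 0.31 for Dlk1, 0.18 for Plagl1, 0.19 for Nnat and 0.14 for Dio3, and none passed (limma, adjusted p = 0.630 to 0.857). The unadjusted p was then 0.0274 for Dlk1, 0.127 for Plagl1, 0.0373 for Nnat and 0.35 for Dio3 (limma). Without the covariate these were 0.0443, 0.302, 0.0865 and 0.334. At an unadjusted p under 0.05, 3 imprinted genes were higher in Ahr-KO with the covariate (Dlk1, Nnat and Asb4), where 2 were without it.

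**Figure D4:**
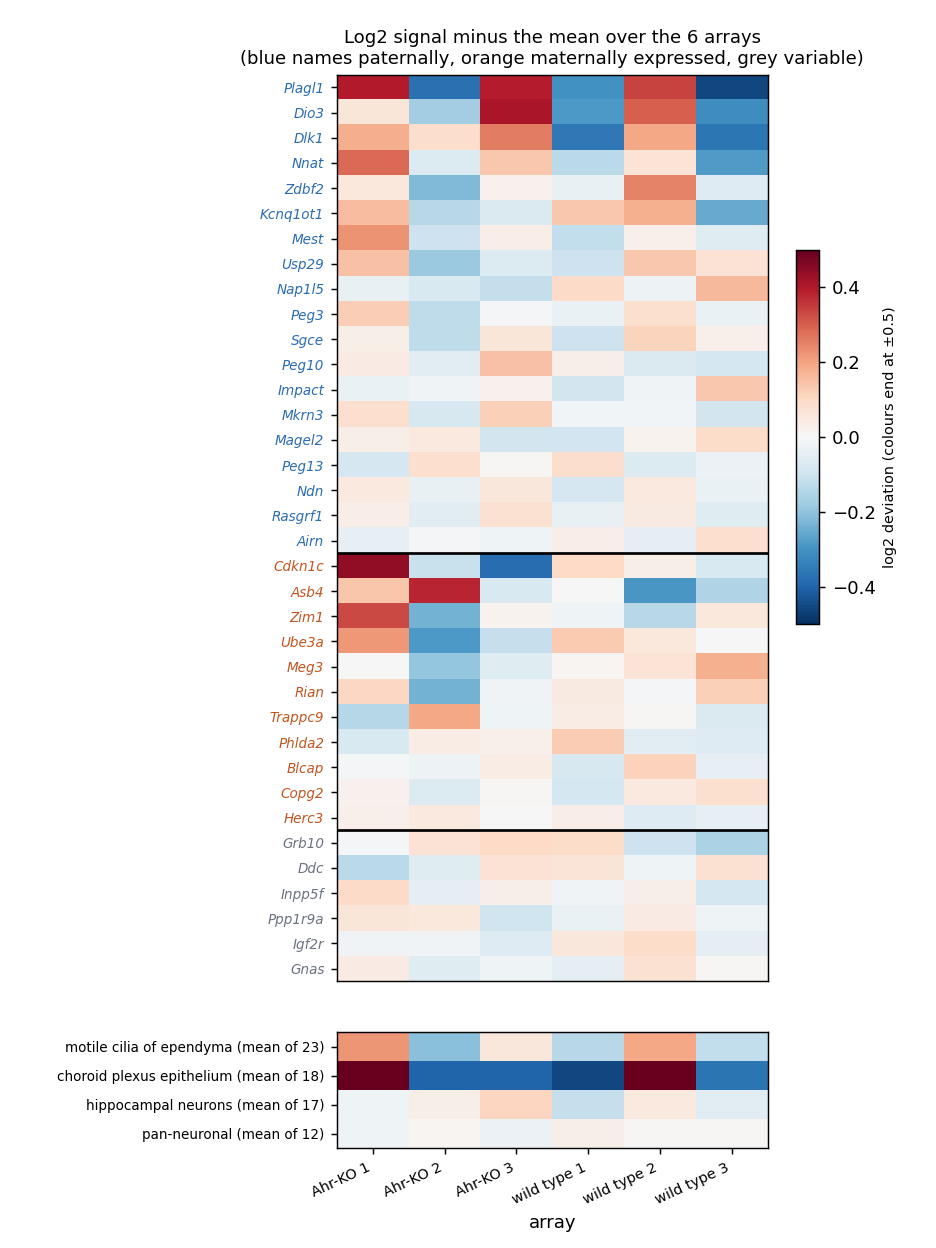
Deviation of each imprinted gene's log2 signal from its mean over the 6 arrays (colour), with genes grouped by allele class and sorted by range, and below them the mean deviation of 4 marker lists. Plagl1, Dio3, Dlk1 and Nnat share high signals on Ahr-KO arrays 1 and 3 and wild-type array 2. The motile cilia list is high on Ahr-KO array 1 and wild-type array 2 and raised much less on Ahr-KO array 3. Choroid plexus genes are high on Ahr-KO array 1 and wild-type array 2.

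The 4 paternally expressed genes with the widest range over the arrays were high together on arrays of both genotypes. Their promoters are shown because the receptor under study reads a short DNA motif, though its binding to them was not tested. They are the 250 bases before the RefSeq start in assembly GRCm38.p6, all on the plus strand, at chr10:13090582-13090831 for Plagl1, chr12:110278980-110279229 for Dio3, chr12:109452573-109452822 for Dlk1 and chr2:157559828-157560077 for Nnat. Capitals mark GCGTG, the core of the AHR-ARNT response element, or its reverse complement.
Plagl1: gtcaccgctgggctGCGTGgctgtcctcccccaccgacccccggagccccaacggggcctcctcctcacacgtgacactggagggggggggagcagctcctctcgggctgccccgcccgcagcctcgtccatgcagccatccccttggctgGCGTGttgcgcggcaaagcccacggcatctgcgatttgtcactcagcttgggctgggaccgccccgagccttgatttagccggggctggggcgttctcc
Dio3: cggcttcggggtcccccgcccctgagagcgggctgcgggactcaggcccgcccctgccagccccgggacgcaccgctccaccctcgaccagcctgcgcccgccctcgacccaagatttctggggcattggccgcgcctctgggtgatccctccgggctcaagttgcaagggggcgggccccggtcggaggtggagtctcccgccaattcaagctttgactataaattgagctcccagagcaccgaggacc
Dlk1: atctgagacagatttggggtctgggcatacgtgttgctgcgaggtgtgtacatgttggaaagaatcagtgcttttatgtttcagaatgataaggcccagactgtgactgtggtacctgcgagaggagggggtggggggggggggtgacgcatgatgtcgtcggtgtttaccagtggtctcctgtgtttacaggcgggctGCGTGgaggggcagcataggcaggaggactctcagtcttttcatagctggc
Nnat: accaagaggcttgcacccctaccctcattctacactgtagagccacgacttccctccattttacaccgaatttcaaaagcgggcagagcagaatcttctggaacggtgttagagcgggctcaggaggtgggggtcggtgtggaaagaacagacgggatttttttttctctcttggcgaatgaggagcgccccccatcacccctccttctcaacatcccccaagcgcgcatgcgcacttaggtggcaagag
The Plagl1 promoter held 2 such matches, the Dlk1 promoter 1, and those of Dio3 and Nnat 0.

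RefSeq promoters were counted for 32 of the 40 listed genes, 46 promoters in all. Any promoter on chromosome 18, where Impact lies, was left out for the listed genes but kept among all promoters. In the 250 bases before the start, GCGTG on either strand was present in 23 of the 46 (50%), against 28.2% of all 32851 promoters in the table. It was present in 12 of 22 promoters of paternally expressed genes in 4 of 12 of maternally expressed genes and in 7 of 12 of genes of variable allele use. The first count includes 4 promoters of Snrpn, which was not measured, and all 4 hold the motif. The motif TGCCGC, bound in its methylated form by ZFP57, the zinc-finger protein that protects imprints, was present in 8 of the 46 (17.4%), against 8.68% of all. Both motifs contain CpG, and the imprinted genes' promoters held a median of 10 CpG dinucleotides against 6 over all promoters. A match is a description of the sequence only, and several promoters of a gene can overlap.

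Genes that set and keep imprints were looked at as a group. Of 28 measured genes for the establishment and maintenance of imprints, 0 passed over all genes with limma and 1 was higher and 0 lower at an unadjusted p under 0.05, against 3.53% and 2.65% of all genes. That gene was Dnmt3l, the germ-line cofactor of the de novo DNA methyltransferases, which read 5.58, 5.41 and 5.61 in Ahr-KO and 5.44, 5.07 and 5.02 in wild type (0.36 ± 0.12, SE; limma, adjusted p = 0.770). Its genotypes overlapped and its signal lay below the array medians. Zfp445, which like ZFP57 protects imprints, differed by -0.12 ± 0.08 (SE) and the methyltransferase Dnmt3a by -0.10 ± 0.07 (SE). Without overlap, 1 gene of the list was higher (Nlrp2, a maternal-effect gene of the oocyte) and 1 lower (Dnmt3a), against 6.18% and 5.75% of all genes. The Nlrp2 signal lay far below the array medians, at 3.79 to 3.82 in Ahr-KO and 3.61 to 3.76 in wild type. The median over the list was -0.0049.

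A further 43 imprinted genes outside the list gave the same count of 0 with limma, and at an unadjusted p under 0.05 there were 0 higher and 1 lower, against 3.53% and 2.65% of all genes. The lower gene was Peg12, a paternally expressed neighbour of Mkrn3, which read 6.43, 6.49 and 6.48 in Ahr-KO and 6.66, 6.66 and 6.61 in wild type without overlap (-0.18 ± 0.07, SE; limma, adjusted p = 0.797). The homeobox gene Dlx5 differed by 0.17 ± 0.07 (SE) and the decoy receptor gene Tnfrsf23 by 0.37 ± 0.17 (SE). The Tnfrsf23 signal lay below the array medians. Of these 43 genes, 7 were higher and 3 lower in Ahr-KO without overlap, against 6.18% and 5.75% of all genes, and their median difference was 0.04. Ahr-KO arrays 1 and 3 and wild-type array 2 were the 3 highest for 1 of the 43.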

How the data were processed

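The authors deposited 1 log2 signal per probe set and array, for 41345 probe sets. The submitters' processing notes list RMA and Affymetrix Expression Console without versions, and per the labels the RNA was labelled with a whole-transcript kit. RMA normalizes the arrays together, so a shift shared by all genes is removed and small fold changes are compressed. The annotation build is not given in the sources used here.

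Gene symbols follow, by Entrez ID, the RefSeq table of GRCm38.p6. Only probe sets with 1 symbol were used (23521), and the brightest per gene was kept, leaving 22180 genes, dim ones included. The genotype test was limma 3.58.1 under R 4.3.3 (lmFit, eBayes without trend, two-sided, all 6 arrays, no covariate, Benjamini-Hochberg over all genes, threshold 0.05). The procedure was tested on simulated data whose changes were all larger than the difference of any imprinted gene over the 6 arrays. How well it recovers smaller differences was not tested. The number of arrays limits the precision. Replicate numbers name different mice, and the labels used here state no pairing between them.

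All measured members are named, each with its difference. Values on every array are given for members at an unadjusted p under 0.05, members without overlap, the 6 highest signals and the lowest p of each locus with several members, and beyond that for Dio3, Plagl1 and Cdkn1c, whose spread was seen first. Members, allele classes and lists were chosen with earlier results of these data known. Alternatives covered the variance model, array weights, normalization, a filter on dim probe sets, the mean over a gene's probe sets, omission of single arrays, a replicate block, and choroid plexus and, added later, motile cilia content. Figures were drawn with matplotlib 3.10.9.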

Additional observations from a re-analysis of the deposited data

How the results depend on the processing

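With 3 arrays per genotype, small differences cannot be resolved, and signals below the array medians may be close to background. Under all 17 alternatives 0 imprinted genes passed over all genes, with a lowest adjusted p of 0.603, and the intensity trend called 2 genes in all. Of the 36 imprinted genes 20 kept their direction in every alternative that could be run for them, and 16, all of them uncalled, changed sign in at least 1. The count of imprinted genes higher at an unadjusted p under 0.05 was 1 with the trend, array weights, renewed quantile normalization, only the brighter probe sets, or when both choroid plexus arrays (Ahr-KO 1 and wild type 2) were left out, and 0 to 3 when single arrays were left out. It was 3 with the motile cilia mean as covariate. The count of lower ones was 1 with the trend and 1 without the 2 choroid plexus arrays, and 0 to 2 when single arrays were left out. The median of the genes of variable allele use was 0.0306 with only the brighter probe sets, where fewer genes are tested. The labels used here state no pairing of mice by replicate number. Deviations from the genotype means correlated across genes at -0.15, -0.22 and 0.05 for same-numbered arrays, and at -0.09 to 0.23 for differently numbered ones. With 3 arrays per genotype such deviations constrain each other, so these values cannot decide whether arrays were paired. With the replicate block 0 imprinted genes were higher at an unadjusted p under 0.05. Placing the genes of variable allele use with their best known allele left the class medians at 0.0055 and -0.0066. Grb10 was placed with the maternally expressed genes there, although neurons express it from the paternal allele.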
